A study of Mus musculus with 18 samples.

Results

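The 79 genes of the cytosolic ribosome were followed across the 6 treatment groups of an RNA-seq series in L929 cells, a mouse fibroblast line of wild-type genotype. They were taken by name from a table of 57180 genes. A gene entered if its symbol was Rpl or Rps followed by a number (with an optional a, l or x) or was Rplp0, Rplp1, Rplp2 or Rpsa, and if it had at least 10 counts in at least 3 of the 18 libraries. Of 83 rows with such a symbol, 79 met the minimum, 48 for proteins of the large subunit and 31 for proteins of the small subunit, and all 79 were among the 14263 genes tested. The other 4 (Rpl10l, Rpl6l, Rpl32l and Rps4l) were below it.

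Each group held 3 cultures. Mock cells received DMSO. AOA cells received aminooxyacetic acid (AOA), an inhibitor of transaminases, the enzymes that make aspartate among them, at 0.5 mM for 1 h before the next step, and AOA+Asp cells received 20 mM aspartate as well. HT-DNA cells were transfected with herring testis DNA, an agonist of the cytosolic DNA sensor cGAS, at 0.5 μg/ml for 6 h by lipofection, and HT-DNA+AOA and HT-DNA+AOA+Asp cells had the same with AOA, or with AOA and aspartate. All 6 groups came from 1 wild-type line, no group had aspartate alone, and the labels do not say whether cells without HT-DNA received the transfection reagent.

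The cytosolic ribosome joins a small subunit, which reads the mRNA, to a large subunit, which forms the peptide bond, and each of its proteins is needed in a fixed ratio to the others. Growing cells spend a large share of their mRNA on these proteins, and most of the mRNAs begin with a tract of pyrimidines, the TOP motif, through which mTORC1 and the RNA-binding protein LARP1 control how well they are translated and how long they last. RNA-seq counts measure the amount of mRNA and do not show how much of it is translated.

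Mouse promoter sequences from RefSeq (GRCm38.p6, from 250 bases before to 50 bases after the annotated start) were found for 59 of the 79 genes. The 7-base pyrimidine run CTCTTTC, searched on the transcript strand from 50 bases before to 50 after the start, was present for 12 of the 59 (20.3%), against 1.62% of all 27025 genes with a sequence and 1.46% of the other genes tested. A search near the annotated start did not cover every chromosome. Where covered, the run lay within 10 bases of the annotated start in 5 genes. They are shown because this is where a TOP motif would sit (30 bases each, 5′ to 3′, with the run in capitals).
Rpl18, chr7:45718064-45718093, plus strand: gcaggccgCTCTTTCcccgcccactccggc
Rpl28, chr7:4792957-4792986, plus strand: tcgtgtctCTCTTTCcgtctccggccgcca
Rpl35, chr2:39005110-39005139, minus strand: gccctttcCTCTTTCtctcgaaccaggctg
Rpl35a, chr16:33056474-33056503, plus strand: ttgccttcCTCTTTCcgccatcttggcgcc
Rps26, chr10:128626480-128626509, minus strand: gccggatcCTCTTTCgagtcttggctccaa
A match is a stretch of letters and not a shown start of transcription. Of the other motifs searched over the whole window on both strands, CCGGAAG (the core bound by ETS factors) was present in 25 of the 59 (42.4%), against 9.93% of all promoters and 20.6% of those of the other genes tested. AAGATGGC (the core bound by YY1) was present in 5 (8.47%), against 3.19% and 5.37%, and on the transcript strand alone in 2 (3.39%), against 1.98% and 3.73%. Among the 12 genes with the pyrimidine run, the median log2 fold change was 0.48 with AOA and 0.49 with HT-DNA, and among the 47 without it 0.45 and 0.49.

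Libraries held 17901605 to 24057343 estimated counts. Of 9 fibroblast markers, 7 were at 1 CPM (the count scaled to the TMM-adjusted total of its library) or more in every library, Thy1 stayed below that and Lox was at 0 in all, and among 5 leukocyte markers Ptprc, Adgre1 and Cd3e were at 0 in all while Cd68 alone read 110.0 to 155 CPM. The summed markers of epithelium and of endothelium each stayed under 1 CPM. Of 8 rows listed as checks of the treatments, 6 rose with AOA (among them Ddit3, Trib3 and Chac1), and with HT-DNA the 3 interferon-stimulated genes Ifit1, Isg15 and Cxcl10 rose while Chac1, Trib3 and 1 of 2 rows named Ddit3 fell. The 79 genes took 5.17% to 8.34% of a library's counts. That share was 5.17%, 5.29% and 5.72% in Mock, 6.19%, 6.95% and 7.25% with AOA, and 5.55%, 5.86% and 5.40% with AOA+Asp. With HT-DNA it was 7.32%, 6.37% and 6.98%, with HT-DNA+AOA 5.78%, 7.22% and 8.34%, and with HT-DNA+AOA+Asp 5.68%, 5.82% and 5.80%. The shares of the AOA and HT-DNA groups lay above all those of Mock, and the HT-DNA+AOA libraries ran from a share close to Mock up to the highest of the series. CPM are scaled to the counts of the same library, so less RNA per cell in all other genes and more from these genes cannot be told apart in bulk RNA.

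**Figure D1:**
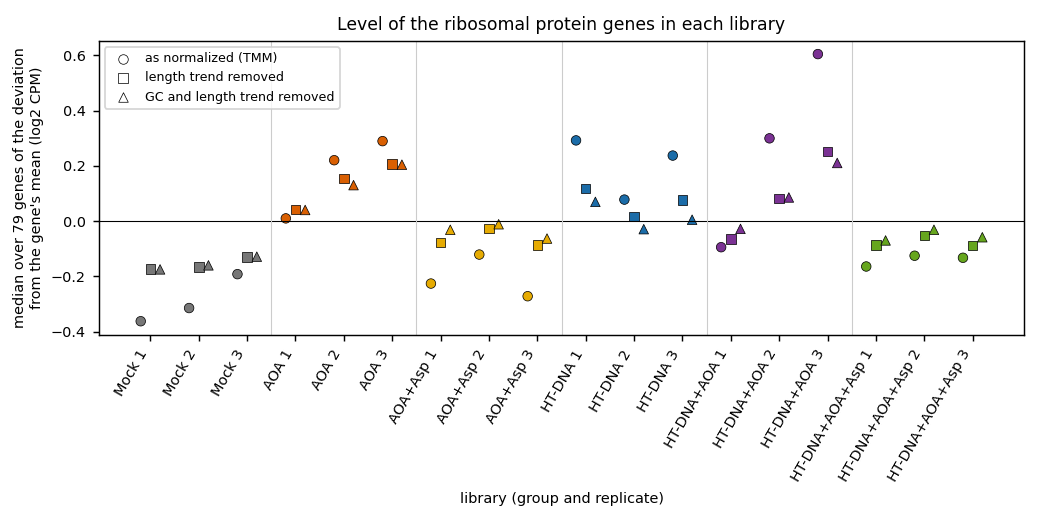
The median, over the 79 ribosomal protein genes, of the deviation of log2 CPM from each gene's mean over all libraries, for each of the 18 libraries (x axis, group and replicate). Circles show TMM-normalized values, squares and triangles those after removal of each library's trend with transcript length or with GC content and length, and the HT-DNA+AOA libraries range from -0.094 to 0.60 before and from -0.065 to 0.25 after the length trend is removed.

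Most of the 79 genes were highest, and most were lowest, in the same library. The highest of the 18 libraries was HT-DNA+AOA replicate 3 for 74 of the 79 genes, and the lowest was Mock replicate 1 for 53. Measured as the median deviation from each gene's mean, the level of the genes was -0.36, -0.31 and -0.19 in Mock on the log2 scale, 0.010, 0.22 and 0.29 with AOA and -0.23, -0.12 and -0.27 with AOA+Asp. It was 0.29, 0.078 and 0.24 with HT-DNA, -0.094, 0.30 and 0.60 with HT-DNA+AOA, and -0.16, -0.12 and -0.13 with HT-DNA+AOA+Asp. The coefficient of variation among the 3 libraries of a group, as a median over the genes, was 23.3% with HT-DNA+AOA, against 2.59% to 9.78% in the other 5 groups.

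Ribosomal protein mRNAs are short, and libraries of this series differed in how counts followed transcript length. The 79 genes had a median annotated length of 771 bases (GENCODE vM21), against 2533.5 bases for the other genes tested. The slope of a library's counts on length, from all other genes, was 0.050 to 0.12 per doubling of length in Mock on the log2 scale and -0.14 to -0.053 with HT-DNA. It was 0.034, -0.14 and -0.23 in HT-DNA+AOA replicates 1, 2 and 3, the same order in which the ribosomal protein genes became more abundant in that group. For the 79 genes, the comparisons between groups and the AOA interaction are therefore also given with each library's trend with length removed. They are given as well with the trends with GC content and length removed. Values of other gene lists and ratios of paralogs are without these corrections. The trends were fitted on genes other than the 79. How far the length trend and the ribosomal protein genes share a source was not tested.

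**Figure D2:**
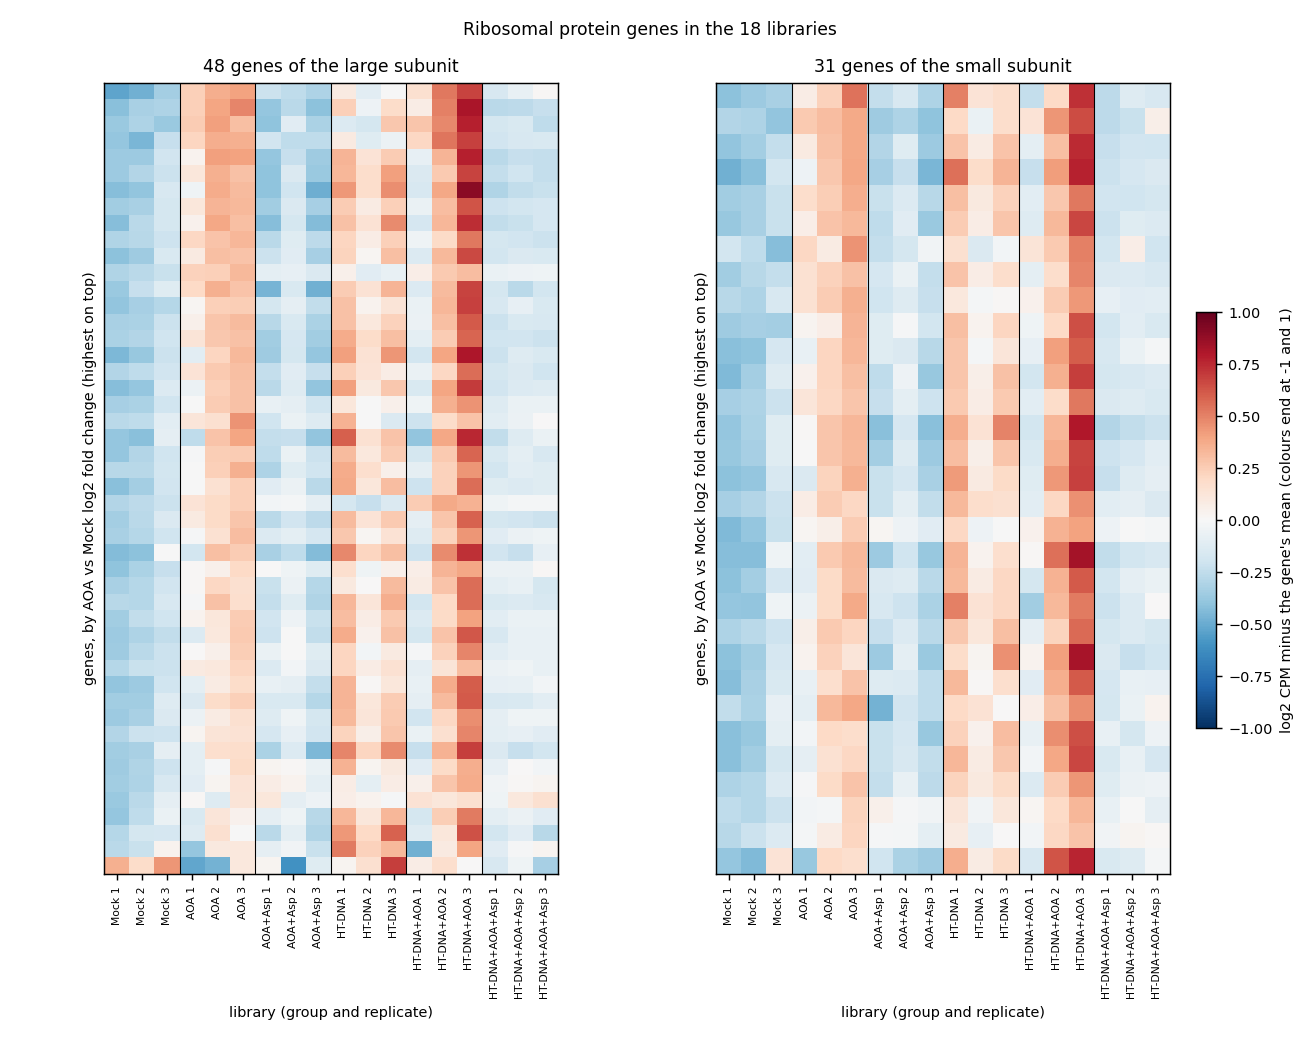
Log2 CPM minus the gene's mean over the 18 libraries (colour) for the 48 genes of the large subunit and the 31 of the small subunit (rows, ordered by log2 fold change with AOA) in each library (columns). Mock libraries are low (blue) for most genes and HT-DNA+AOA replicate 3 is the highest library for 74 of the 79 genes.

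With AOA alone, 71 of the 79 genes (89.9%) rose against Mock and 0 fell at an adjusted p under 0.05, with a median log2 fold change of 0.46, where 45.7% of all genes tested changed and 22.4% rose. The large subunit gave 41 of 48 and the small subunit 30 of 31. Replicates of the groups did not overlap for 68 of the 79 genes, against 59.4% of all genes. After the length trend was removed, 69 changed with a median of 0.28, and after removal of the GC content and length trends 53 changed with a median of 0.27. Of all 14263 genes tested, 6765 changed after the length correction and 7400 after the GC content and length correction. Of the 71 genes, 53 rose under all 3 treatments of the trend. With library totals in place of TMM the median of the 79 was 0.33 and that of all genes was -0.12.

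The largest rises with AOA were those of Rpl22, Rpl12, Rpl10a, Rpl3 and Rps14. Rpl22 (ENSMUSG00000028936), an RNA-binding protein on the surface of the large subunit, read 92, 95.5 and 105 CPM in Mock and 156, 171 and 176 CPM with AOA, a log2 fold change of 0.79 (SE 0.1, edgeR quasi-likelihood adjusted p = 4.48e-06), where SE is the standard error of the fit. Its AOA libraries all lay above its Mock libraries, it stayed at 0.74 after the GC content and length correction, and 9.78% of its 31-base stretches can be found elsewhere among annotated genes. Rpl12 (ENSMUSG00000038900), at the base of the stalk that receives the translation factors, read 152, 162 and 164 CPM in Mock and 240.1, 266 and 285 CPM with AOA, a log2 fold change of 0.73 (SE 0.125, edgeR quasi-likelihood adjusted p = 0.000118). Rpl10a (ENSMUSG00000037805), the protein of the L1 stalk beside the exit of the used tRNA, read 267, 279 and 266 CPM in Mock and 410.4, 458 and 424 CPM with AOA, a log2 fold change of 0.67 (SE 0.118, edgeR quasi-likelihood adjusted p = 0.00014). For both genes the groups did not overlap. Rpl3 (ENSMUSG00000060036), which reaches towards the peptidyl transferase centre, rose by a log2 fold change of 0.67 (SE 0.0950, edgeR quasi-likelihood adjusted p = 1.57e-05), and Rps14 (ENSMUSG00000024608), a small subunit protein near the mRNA channel, by 0.66 (SE 0.168, edgeR quasi-likelihood adjusted p = 0.00364).

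By role, the 3 proteins of the P stalk had log2 fold changes with AOA of 0.52 to 0.55, near the median of 0.46 over the 79. Rplp0 (ENSMUSG00000067274), the anchor of the P stalk and the most abundant of the 79 in CPM, read 2863, 2915 and 3046 CPM in Mock, 4063, 4289 and 4429 CPM with AOA, 2917, 3242 and 2939.6 CPM with AOA+Asp and 4099, 3716 and 4155 CPM with HT-DNA. Its AOA and HT-DNA libraries lay above every Mock and AOA+Asp library. Its log2 fold change with AOA was 0.53 (SE 0.1, edgeR quasi-likelihood adjusted p = 0.000258), and those of its partners Rplp1 and Rplp2 were 0.55 and 0.52.

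At the mRNA entry, Rps2 rose by a log2 fold change of 0.65, Rps3 by 0.58 and Rps9 by 0.49. At the exit side, Rpsa (ENSMUSG00000032518) read 1889, 1924 and 2069.8 CPM in Mock and 2728, 2851 and 3094 CPM with AOA, a log2 fold change of 0.56 (SE 0.108, edgeR quasi-likelihood adjusted p = 0.00033), while Rps28 rose by 0.41 and Rps26 by 0.32. Rps6, the substrate of S6 kinase downstream of mTORC1, rose by 0.50, Rps27a, made as a fusion with ubiquitin, by 0.48, and Rpl13a, known from translational control after interferon-gamma, by 0.60.

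The smallest rises that passed were those of Rpl5 (0.25), Rpl23 (0.29), Rps4x (0.30), Rps26 and Rpl21 (0.32). Rpl5 and Rpl11 enter the large subunit together with the 5S rRNA and, with Rpl23, can bind the p53 regulator Mdm2. Rpl5 (ENSMUSG00000058558) read 65.1, 69.8 and 79 CPM in Mock and 84.8, 77 and 92.2 CPM with AOA, so that the groups overlapped, and Rpl11 rose by 0.40. The 8 genes that did not pass were Rpl3l, Rpl27, Rpl37, Rpl37a, Rpl38, Rpl39, Rpl39l and Rps29. Of these, Rpl37a had a log2 fold change of 0.10 (SE 0.162, edgeR quasi-likelihood adjusted p = 0.64). Rpl3l (ENSMUSG00000002500), the striated muscle paralog of Rpl3, was the one of the 79 with a value below 0, at -0.61 (SE 0.298, edgeR quasi-likelihood adjusted p = 0.11), from 0.762, 0.676 and 0.807 CPM in Mock to 0.414, 0.429 and 0.640 CPM with AOA. It had 8 to 22 counts per library over the series, where counting error is large.

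Adding aspartate to AOA lowered 54 of the 79 genes (68.4%) and raised 0, with a median log2 fold change of -0.38, where 46.3% of all genes changed and 22.8% fell. Groups did not overlap for 65 of the 79 genes, against 56.8% of all genes. This comparison and the preceding one share the AOA libraries, so a library that is high in AOA moves both. The largest falls were those of Rpl12 (-0.73), Rps2 (-0.67), Rplp2 (-0.64), Rpl13a (-0.62) and Rpl22 (-0.60). Rpl12 read 155, 169 and 152 CPM with AOA+Asp, all below its AOA libraries, and its log2 fold change was -0.73 (SE 0.125, edgeR quasi-likelihood adjusted p = 0.000118). The smallest falls that passed were those of Rpl4 (-0.23), Rpl7a (-0.24), Rpl27a (-0.25), Rpl11 (-0.29) and Rpl9 (-0.29). Rpl23, Rpl5, Rpl21 and Rps26 had values from -0.063 to -0.014 and did not pass. After the length correction 6710 of all 14263 genes tested changed, 3223 of them upwards. After the GC content and length correction 7159 changed, 3533 of them upwards. Among the 79 the count was 42 and then 33 (32 lower and 1 higher), with medians of -0.19 and -0.17, and Rpl7a read 0.0048 after the latter. With both directions counted together, the share of the 79 called after the latter was below that of all genes. The count among the 79 was 30 without AOA replicate 3, where 5731 of 14577 genes changed. It was 31 without AOA+Asp replicate 3, where 5426 of 14556 genes changed.

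Against Mock, AOA+Asp differed in 1 gene, Rpl4, with a median over the 79 of 0.077, where 6.47% of all genes changed, 2.52% upwards and 3.95% downwards. Groups did not overlap for 18 of the 79 genes, against 32.7% of all genes. Rpl4 (ENSMUSG00000032399), which lines the exit tunnel of the nascent chain, read 1154, 1179.6 and 1219 CPM in Mock, 1555, 1615 and 1669 CPM with AOA and 1388, 1397 and 1333 CPM with AOA+Asp. The 3 groups did not overlap for Rpl4, and AOA+Asp lay between the other two, at a log2 fold change of 0.21 (SE 0.0562, edgeR quasi-likelihood adjusted p = 0.0276) from Mock. The call on Rpl4 was lost without any one of the 3 Mock libraries or without AOA+Asp replicate 1 or 2. With the length correction 11 genes were higher, where 1431 of all 14263 genes tested changed, 750 of them upwards. With the GC content and length correction 20 genes changed, where 1697 of all genes did.

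**Figure D3:**
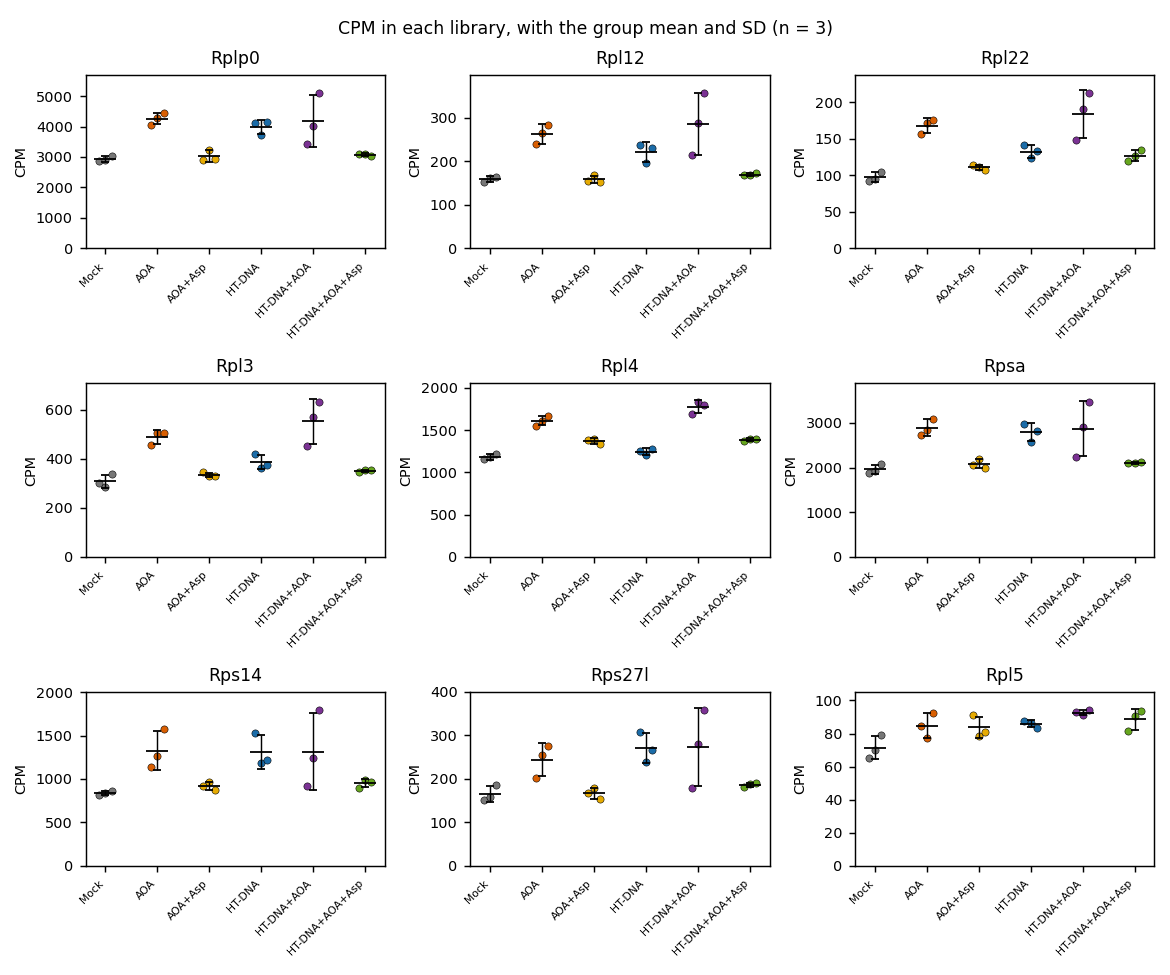
CPM of 9 ribosomal protein genes (panels) in the 3 libraries of each group (points), with the group mean and SD (bars, n = 3). Rpl4 is close to Mock with HT-DNA and high with HT-DNA+AOA, where the libraries of Rplp0, Rpl12, Rpsa, Rps14 and Rps27l spread most.

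With HT-DNA alone, 75 of the 79 genes (94.9%) rose against Mock and 0 fell, with a median log2 fold change of 0.49, where 48.2% of all genes changed, 24.2% upwards and 24.0% downwards. Replicates did not overlap for 75 genes, against 61.3% of all genes. The Mock libraries are shared with the comparison of AOA with Mock, so the values of both stand side by side without a test of their likeness. The 5 largest rises with HT-DNA were those of Rps27l (0.72), Rplp1 (0.69), Rpl34 (0.68), Rpl39l (0.65) and Rpl39 (0.65), whose values with AOA were 0.57, 0.55, 0.50, 0.34 and 0.46. Rps27l (ENSMUSG00000036781), a paralog of Rps27 known as a p53 target, read 151, 157 and 185 CPM in Mock and 307, 239 and 265 CPM with HT-DNA, without overlap, a log2 fold change of 0.72 (SE 0.173, edgeR quasi-likelihood adjusted p = 0.00264). Rplp1 (ENSMUSG00000007892), of the P stalk, read 555, 567 and 669 CPM in Mock and 1006, 844 and 1029 CPM with HT-DNA, also without overlap, a log2 fold change of 0.69 (SE 0.180, edgeR quasi-likelihood adjusted p = 0.00474).

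The 4 genes that did not pass with HT-DNA were Rpl4, Rpl10, Rpl3l and Rps29. Rpl4 read 1256, 1208 and 1279 CPM, which overlapped Mock, and had a log2 fold change of 0.076 (SE 0.0562, edgeR quasi-likelihood adjusted p = 0.28) with the smallest standard error of the 79 in this comparison. The smallest rises that passed were those of Rps4x (0.21), Rpl6 (0.22), Rpl5 (0.27), Rps6 (0.28) and Rps18 (0.29). Rpl22, Rpl12, Rpl10a and Rpl3, which led with AOA, rose by 0.44, 0.48, 0.35 and 0.33.

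The rise with HT-DNA was examined against transcript length. The count fell to 54 after the length correction and to 43 after the GC content and length correction, with medians of 0.21 and 0.15, and 36 genes rose under all 3 treatments of the trend. Of all 14263 genes tested, 6150 changed after the former correction and 6134 after the latter. Rps18 read -0.042 and -0.18 after the corrections, and Rps4x -0.026 after that for length. Rpl22 stayed at 0.39 and 0.49, Rpsa at 0.39 and 0.30, and Rps27l at 0.40 and 0.62, whereas Rplp1 read 0.36 and 0.14. Within classes of length, the 27 ribosomal protein genes of 700 to 1000 bases had a median log2 fold change of 0.48 with AOA, against 0.21 for 889 other genes, and 0.49 with HT-DNA, against 0.30. For 23 genes of 500 to 700 bases the medians were 0.46 against 0.25 with AOA and 0.51 against 0.38 with HT-DNA. Across the 79 genes, Spearman's rho of the log2 fold change with length was 0.078 with AOA and -0.47 with HT-DNA, a description over genes that share all libraries. Rps15a and Rps20 have annotated lengths of 5130.0 and 3706 bases because long transcripts are annotated for them, and the corrections moved both upwards.

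**Figure D4:**
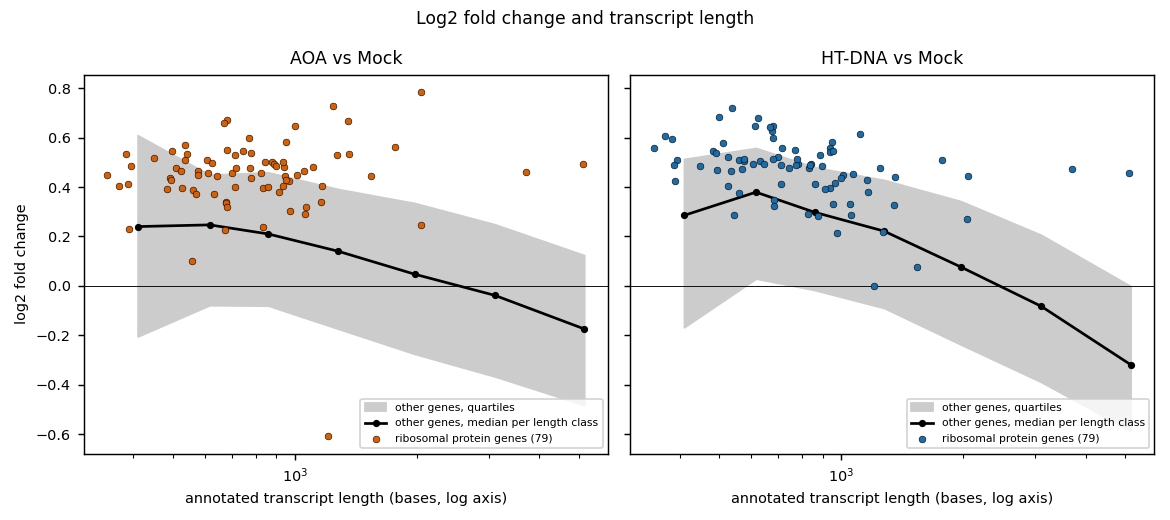
Log2 fold change (y axis) against annotated transcript length (x axis, bases, log axis) for AOA vs Mock and HT-DNA vs Mock. Coloured points are the 79 ribosomal protein genes, the black line is the median of other genes in 7 length classes and the grey band their quartiles, and the medians of other genes fall with length in both, from 0.24 to -0.17 with AOA and from 0.29 to -0.32 with HT-DNA between the shortest and the longest class.

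In cells with HT-DNA, adding AOA raised 11 of the 79 genes (13.9%) and lowered 0, with a median log2 fold change of 0.090, where 45.4% of all genes changed and 22.8% rose. The 11 were Rpl10a (0.53), Rpl3 (0.52), Rpl4 (0.51), Rpl22 (0.47), Rpl12 (0.37), Rps2 (0.32), Rps18 (0.30), Rpl6 (0.26), Rpl23 (0.22), Rps6 (0.22) and Rpl7 (0.21). Rpl4 read 1256, 1208 and 1279 CPM with HT-DNA and 1691, 1837 and 1802 CPM with HT-DNA+AOA, without overlap, a log2 fold change of 0.51 (SE 0.0563, edgeR quasi-likelihood adjusted p = 5.52e-07). Rpl3 read 418, 362 and 377 CPM with HT-DNA and 454, 570.3 and 633 CPM with HT-DNA+AOA, without overlap, a log2 fold change of 0.52 (SE 0.0948, edgeR quasi-likelihood adjusted p = 0.000182). Groups did not overlap for 6 of the 79 genes, against 44.8% of all genes.

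The number of genes that passed moved with single libraries. Rpl13a read 1267, 1096 and 1192 CPM with HT-DNA and 947, 1267 and 1717 CPM with HT-DNA+AOA, so that replicate 1 lay below, replicate 2 at the level of and replicate 3 above the HT-DNA libraries. Rplp1 (669, 973 and 1396 CPM) and Rps27l (179, 280.4 and 357 CPM) showed the same spread. The count was 39 without HT-DNA+AOA replicate 1, 5 without HT-DNA+AOA replicate 2, 5 without HT-DNA replicate 2 and 7 without HT-DNA replicate 3. With replicate 2 as the sole HT-DNA+AOA library it was 12. It was 16 after the length correction and 31 (28 higher and 3 lower) after the GC content and length correction, and 7 genes rose under all 3 treatments of the trend. Among all 14263 genes tested, 7057 changed after the former correction and 7421 after the latter. Rpl7 read -0.0035 after the GC content and length correction, and Rpl4 0.35.

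Adding aspartate to HT-DNA+AOA lowered 67 of the 79 genes (84.8%) and raised 0, with a median log2 fold change of -0.43, where 47.7% of all genes changed, 23.9% downwards and 23.7% upwards. The largest falls were those of Rpl12 (-0.75), Rpl10a (-0.72), Rps20 (-0.70), Rplp1 (-0.70) and Rpl3 (-0.66). Rpl12 read 214, 288 and 357 CPM with HT-DNA+AOA and 168, 169 and 173 CPM with HT-DNA+AOA+Asp, without overlap, a log2 fold change of -0.75 (SE 0.125, edgeR quasi-likelihood adjusted p = 8.45e-05). Rpl3 fell to 345, 353 and 353 CPM and Rpl4 to 1372, 1395 and 1400.0 CPM, both below every HT-DNA+AOA library. Among the smallest falls that passed were those of Rpl23 (-0.24), Rps26 (-0.25), Rpl6 (-0.27) and Rpl9 (-0.27). Groups did not overlap for 44 genes, against 48.8% of all genes. After the corrections for length and for GC content and length, 6612 and 7240 of all 14263 genes tested changed, 3164 and 3566 of them upwards. Among the 79 the count was then 36 and 31 (medians -0.17 and -0.14), and Rps26 read 0.0057 after the length correction. The count among the 79 was 30 without HT-DNA+AOA replicate 3, where 5978 of 14575 genes changed, 3089 of them upwards. It was 22 in a fit of these 6 libraries alone, where 4278 of 13406 genes changed, 2201 of them upwards. With both directions counted together, none of the shares of the 79 after a correction or in these fits was above that of all genes.

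Cells with HT-DNA+AOA+Asp were then below HT-DNA cells in 45 of the 79 genes and above them in 1, Rpl4, where 46.6% of all genes changed, 23.5% downwards. The median log2 fold change was -0.35. The largest falls were those of Rplp1 (-0.62), Rpl27 (-0.61), Rps16 (-0.60), Rpl39l (-0.58) and Rps27l (-0.54), and the smallest that passed those of Rpl7a (-0.21), Rpl29 (-0.26), Rpl27a (-0.29), Rpl11 (-0.30) and Rpl24 (-0.30). Rplp1 read 607, 627 and 638 CPM with HT-DNA+AOA+Asp, below all its HT-DNA libraries, and its log2 fold change was -0.62 (SE 0.179, edgeR quasi-likelihood adjusted p = 0.00942). Rpl4 was higher by 0.15 (SE 0.0562, edgeR quasi-likelihood adjusted p = 0.0309). After the corrections for length and for GC content and length, 6351 and 5285 of all 14263 genes tested changed. The 46 calls became 27 (22 lower) and 22 (16 lower) after the corrections, with medians of -0.15 and -0.075, Rpl29 then read 0.24 and Rpl7a 0.045 for GC content and length, and 8 genes kept their direction and call under all 3 treatments of the trend. Without 1 library the count was 16 (HT-DNA replicate 1), 21 (HT-DNA replicate 3), 25, 26 and 27 (HT-DNA+AOA+Asp replicates 1, 2 and 3). Over all genes it was 5158 of 14586, 5088 of 14565, 5623 of 14583, 5395 of 14557 and 5429 of 14572 in this order. Groups did not overlap for 66 genes, against 61.1% of all genes.

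**Figure D5:**
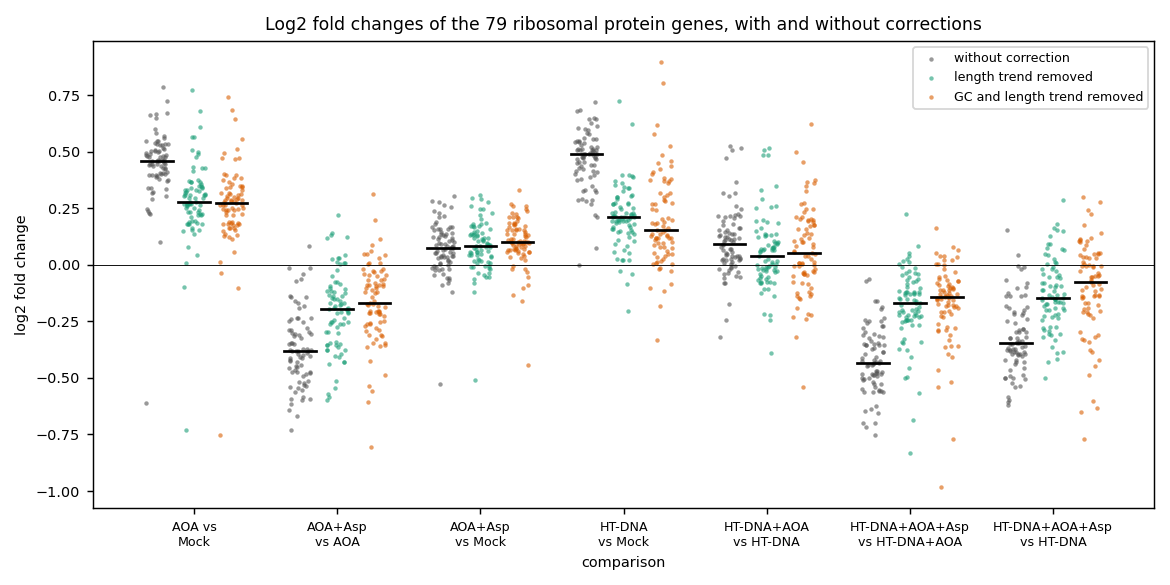
Log2 fold changes (y axis) of the 79 ribosomal protein genes (points) in 7 comparisons (x axis) without correction and after removal of the trend with length or with GC content and length, with the median as a bar. The medians with AOA are 0.46, 0.28 and 0.27, and with HT-DNA 0.49, 0.21 and 0.15.

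Whether AOA acted differently with and without HT-DNA was tested as an interaction. The effect of AOA was smaller with HT-DNA in 8 of the 79 genes (10.1%) and larger in 0. Of all genes 15.5% differed, 8.26% downwards and 7.23% upwards, so the share called among the 79 was close to that among all genes. The median difference on the log2 scale was -0.37 over the 79 and 0.0059 over all genes tested. It was -0.34 over 78 mitochondrial ribosomal protein genes and -0.29 over 78 subunits of the respiratory chain and ATP synthase. Among the 8 were Rpsa, Rpl8, Rps15, Rplp0, Rps9, Rpl11 and Rpl7a, whose differences ran from -0.52 to -0.40. Rpsa, for one, had a log2 fold change with AOA of 0.56 without HT-DNA and of 0.042 with it, a difference of -0.52 (SE 0.152, edgeR quasi-likelihood adjusted p = 0.0285). In the HT-DNA+AOA group Rpsa read 2242, 2899.7 and 3473 CPM, against 2969, 2576 and 2820.0 CPM with HT-DNA. After the length correction 25 of the 79 genes and 2773 of all 14263 genes tested differed. After the GC content and length correction 17 of the 79 and 2699 of all genes differed, and the difference of Rps15 was -0.071. Over all genes, 2209 of 14263 differed in the main fit and 5420 of 14575 without HT-DNA+AOA replicate 3. The all-gene number was 1282 of 14549 without Mock replicate 1, 1583 of 14577 without AOA replicate 3 and 1256 of 14586 without HT-DNA replicate 1. Among the 79, the 8 became 59 without HT-DNA+AOA replicate 3 and 5 without Mock replicate 3. They became 1 without Mock replicate 2, AOA replicate 2, HT-DNA replicate 3 or HT-DNA+AOA replicate 2. They became 0 without Mock replicate 1, AOA replicate 3 or HT-DNA replicate 1. With replicate 2 as the sole HT-DNA+AOA library 33 differed. For the effect of aspartate, edgeR called 0 of the 79 genes different with and without HT-DNA, with 0 at an unadjusted p under 0.05 and 0 by DESeq2, and 1.05% of all genes differed.

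Levels within the set differed far more than any treatment moved them. Per kilobase of transcript and averaged over the 18 libraries, the genes ran from 0.506 CPM (Rpl3l) to 3595 CPM (Rpl41, the shortest ribosomal protein), with a median of 897 CPM. Rpl23a, Rpl35a, Rps15 and Rplp0 followed Rpl41, and Rps2, Rpl5, Rpl22 and Rps18 came just above Rpl3l. Processed copies of ribosomal protein genes lie throughout the genome, and reads can match both. The share of a gene's 31-base sequences that also occur in other genes was 0% to 94.1% over the 79, with a median of 44.3%, and it was 70.3% for Rps2 and 86.2% for Rps18. Rows named as copies of 62 of the genes, 319 in all, took 0.567% to 0.934% of a library's counts. How reads were divided between genes and copies is not given in the sources used here, so each gene's level is uncertain by that division. By classes of sharing, with AOA, the 10 genes with under 20% shared sequence had a median log2 fold change of 0.50 and 8 rose, and the 23 genes with 60% or more had 0.44 and 23 rose. With HT-DNA the medians were 0.50 and 0.41.

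Paralogs were compared as ratios of CPM per kilobase within a library, which the scaling of the library does not touch. A library's trends with length and GC content were not removed from them, and paralogs differ in both. Rps27l has 537 annotated bases and Rps27 345. Rps27l stood at 0.182, 0.191 and 0.176 of Rps27 in Mock, 0.195, 0.205 and 0.195 with AOA, and 0.201, 0.200 and 0.213 with HT-DNA. Both treated groups lay above Mock without overlap (exact permutation test, two-sided p = 0.1 for each, the smallest that 3 against 3 allows, and 0.333 when adjusted over 30 tests). Rpl7l1, a nucleolar relative of Rpl7 outside the name rule, stood at a mean of 0.174 of Rpl7 in Mock, 0.150 with AOA and 0.206 with HT-DNA, in each case without overlap with Mock (exact permutation p = 0.1), and at 0.160 with HT-DNA+AOA, without overlap with HT-DNA. For Rpl39l against Rpl39, Rpl22l1 against Rpl22 and Rpl36al against Rpl36a the groups overlapped in all 5 comparisons made, whereas Rpl3l against Rpl3 did not overlap between AOA and Mock, with means of 0.00113 and 0.00273, or between HT-DNA+AOA and HT-DNA, with means of 0.00131 and 0.00218. For both comparisons of Rpl3l the exact permutation p was 0.1 (0.333 adjusted), and Rpl3l had 8 to 22 counts per library.

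Ribosomal proteins that the name rule leaves out were read beside the 79. Of all genes tested, 22.4% rose with AOA and 24.2% with HT-DNA. Of Fau, Rack1, Rpl36al, Rpl7l1 and Rpl22l1, 4 of 5 rose with AOA and 4 of 5 with HT-DNA, with Rpl22l1 short of the threshold in both. Fau, the fusion that carries Rps30, had log2 fold changes of 0.44 (SE 0.153, edgeR quasi-likelihood adjusted p = 0.0243) with AOA and 0.63 (SE 0.153, edgeR quasi-likelihood adjusted p = 0.00281) with HT-DNA. Of 19 other TOP mRNAs, 18 rose with AOA (median 0.40) and 14 rose and 1 fell with HT-DNA (median 0.27). Among them Eef2, the elongation factor of translocation, rose by 0.59 with AOA and 0.34 with HT-DNA, and Eef1a1, which delivers the charged tRNAs, rose by 0.47 with AOA and read -0.094 (adjusted p = 0.143, edgeR) with HT-DNA. With aspartate added to AOA, 12 of the 19 fell and 1, Npm1, rose, where 22.8% of all genes fell. In cells with HT-DNA, AOA raised 8 and lowered 1 of the 19, where 22.8% of all genes rose. Aspartate on top lowered 13 and raised 1, where 23.9% of all genes fell.

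Genes that control mTORC1 and TOP mRNAs went both ways, with 8 of 20 higher and 5 lower with AOA and 6 higher and 5 lower with HT-DNA, against 45.7% and 48.2% of all genes that changed in either direction, so nothing about the list is read from its counts. Larp1, which binds the TOP motif, rose by 0.40 with AOA and 0.35 with HT-DNA, and Eif4ebp1, the translational repressor that mTORC1 inactivates, rose by 0.56 with AOA and read 0.18 with HT-DNA, where it did not pass. Ddit4 and Sesn2, inhibitors of mTORC1 that are induced by stress, rose by 1.05 and 0.89 with AOA, and Mtor itself fell by 0.42 on the log2 scale. Of 14 chaperones and late assembly factors of ribosomes, 9 rose and 1 (Efl1) fell with AOA, and 8 rose and 1 (Efl1) fell with HT-DNA. Among all genes, 22.4% rose with AOA and 24.2% with HT-DNA. Grwd1, the chaperone of Rpl3, rose by 0.34 with AOA and 0.97 with HT-DNA, Tsr2, the chaperone of Rps26, by 0.45 and 0.64, and Mrto4, which holds the place of the P stalk during assembly, by 0.75 and 0.80.

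Other families of short mRNAs stood as follows. The 78 mitochondrial ribosomal protein genes had a median length of 1224.5 bases, against 771 bases for the 79. Of these 78, 41 rose and 5 fell with AOA (median 0.30), and 70 rose and 0 fell with HT-DNA (median 0.43). Of 78 subunits of the respiratory chain and ATP synthase, with a median length of 725 bases, 27 rose and 2 fell with AOA (median 0.27), and 62 rose and 2 fell with HT-DNA (median 0.41). The medians of the 79 cytosolic genes were 0.46 and 0.49. Aspartate added to AOA gave medians of -0.28 (mitochondrial ribosomal) and -0.26 (respiratory chain and ATP synthase), against -0.38 for the 79. Added to HT-DNA+AOA, it gave -0.29 and -0.33, against -0.43. The median difference of the AOA effect with HT-DNA from that without it was -0.34 and -0.29, against -0.37. Over all genes tested, 22.4% rose with AOA and 24.2% with HT-DNA. None of these values was corrected for length or GC content. The difference between the families was not tested.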

How the data were processed

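RNA was extracted from L929 cells with TRIzol and sequenced in 18 libraries, 3 independent cultures in each of 6 groups. The authors deposited 1 table of estimated counts per gene for 57180 genes, of which 11.6% of values were not whole numbers. The aligner, counter, strandedness and genome build are not given in the sources used here. Totals were 17901605 to 24057343 counts per library (median 20385838), and 6 columns of the authors' group means were only checked against the single libraries. The rule for the 79 genes, and all gene lists, were chosen with earlier results of these data known, so counts over them are descriptions of these libraries.

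Counts were rounded to whole numbers, filtered with filterByExpr (minimum count 10, minimum total 15), which left 14263 genes, and normalized by TMM. All 18 libraries entered 1 model with group as its only term, and 9 contrasts (7 differences between groups and 2 interactions) were tested with edgeR's quasi-likelihood test (robust, edgeR 4.0.16, R 4.3.3) with Benjamini-Hochberg adjustment over all genes tested. A gene was called at an adjusted p under 0.05. Genes were named by rule: the 5 highest and 5 lowest log2 fold changes among those called in a comparison, up to 5 in each interaction, the extremes of mean CPM, those under a minimum, and genes of the lists. Other genes named with values were chosen after their values were seen, and single values of a few genes are not reported here. Length, GC content and shared 31-base sequences came from GENCODE vM21, in which 51884 of the table's identifiers and all 79 genes were found. Trends with length, or GC content and length, were fitted in each library by loess (span 0.3) on other genes at 1 CPM or more and removed as offsets. The alternatives tried were DESeq2 1.42.0, other scalings and filters, a replicate block, rows of pseudogenes added to their genes, and each library left out. The fit of AOA vs Mock and the removal of a length trend were tested on simulated data. Other comparisons, the interactions and the larger spread in HT-DNA+AOA were not simulated. No per-gene p-value here covers more than the spread among 3 cultures a group. The model estimates 1 spread per gene over all 6 groups. In HT-DNA+AOA the median coefficient of variation over the 79 genes was 23.3%, against 2.59% to 9.78% in the other groups. Standard errors and p-values of comparisons with HT-DNA+AOA thus rest partly on the smaller spread of other groups. Over genes, replicate pairs differed by 2.69 to 60.8 times the variance that counting alone gives, so counting error was a sizeable part of the spread in some groups.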

Additional observations from a re-analysis of the deposited data

Results flagged for a closer look

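The effect of AOA differed between cells with and without HT-DNA in 8 of the 79 ribosomal protein genes (10.1%), by edgeR's quasi-likelihood test of the interaction with Benjamini-Hochberg adjustment. Of all genes tested 15.5% differed, 8.26% downwards, so the share called among the 79 was close to the background and no result is read from that share. In all 8 the log2 fold change with AOA was smaller with HT-DNA than without. The difference was -0.52 for Rpsa (adjusted p = 0.0285), -0.52 for Rpl8 (adjusted p = 0.0369) and -0.48 for Rps15 (adjusted p = 0.0305). It was -0.47 for Rplp0 (adjusted p = 0.0324), -0.47 for Rps9 (adjusted p = 0.0446), -0.44 for Rpl11 (adjusted p = 0.0461) and -0.40 for Rpl7a (adjusted p = 0.0233). Of the 8, 7 were called also after the length correction and after the GC content and length correction, Rps15 being the exception. The median difference was -0.37 over the 79 genes and 0.0059 over all genes tested. Other short-mRNA families were similar, at -0.34 over 78 mitochondrial ribosomal protein genes and -0.29 over 78 subunits of the respiratory chain and ATP synthase. The difference was above 0 in 3 of the 79 and in 7186 of the 14263 genes tested. It was above 0 in 2 of the 78 mitochondrial ribosomal protein genes and in 3 of the 78 subunits. These are descriptions over genes that share all libraries. The number of the 79 genes past the threshold ranged from 0 to 59 when 1 library was left out. It was 59 without HT-DNA+AOA replicate 3 and 0 without Mock replicate 1, AOA replicate 3 or HT-DNA replicate 1. The number over all genes moved as well, to 5420 of 14575 without HT-DNA+AOA replicate 3. It was 1282 of 14549, 1583 of 14577 and 1256 of 14586 without Mock replicate 1, AOA replicate 3 and HT-DNA replicate 1.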

How the results depend on the processing

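The rise of the 79 genes with AOA and with HT-DNA, and its fall with aspartate on top of either AOA treatment, kept the direction of its median under every alternative run. Values here are counts of the 79 genes called by edgeR unless another tool is named. Counts over all genes after the length correction and after the GC content and length correction stand with the comparisons above. For AOA vs Mock the count stayed within 1.5 times of 71 under all alternatives, and leaving out 1 library gave 48 to 73. Over all genes, leaving out 1 library gave 5449 to 5938 for AOA vs Mock. With GC content and length removed, the counts were 33 for AOA+Asp vs AOA, 20 for AOA+Asp vs Mock, 43 for HT-DNA vs Mock, 31 for HT-DNA+AOA vs HT-DNA, 31 for HT-DNA+AOA+Asp vs HT-DNA+AOA, 22 for HT-DNA+AOA+Asp vs HT-DNA and 17 for the AOA interaction. With the replicate block as well, 7225, 1742, 6170, 7425, 7281, 5356 and 2784 of all 14263 genes tested were called, in the same order. For the 79 the counts were 34, 22, 45, 31, 34, 25 and 19. With length alone removed they were 11 for AOA+Asp vs Mock, 36 for HT-DNA+AOA+Asp vs HT-DNA+AOA, 27 for HT-DNA+AOA+Asp vs HT-DNA and 25 for the AOA interaction. With only the libraries compared in the fit they were 10 for AOA+Asp vs Mock, 4 for HT-DNA+AOA vs HT-DNA, 22 for HT-DNA+AOA+Asp vs HT-DNA+AOA and 0 for the AOA interaction. Over all genes, such fits called 7487 (main fit 6516) for AOA vs Mock and 7699 (main fit 6879) for HT-DNA vs Mock. They called 2462 (main fit 923) for AOA+Asp vs Mock and 1019 (main fit 2209) for the AOA interaction. With HT-DNA+AOA libraries in the fit, they called 4167 (main fit 6477) for HT-DNA+AOA vs HT-DNA. For HT-DNA+AOA+Asp vs HT-DNA+AOA they called 4278 (main fit 6797). Why these counts moved was not tested. For AOA+Asp vs Mock, with 1 of the 79 called, DESeq2 gave 5, a minimum of 10 counts in every library 3 and no filter 4. Rows of pseudogenes added gave 2 and a log2 fold change of at least 0.25 gave 0. Over all genes the counts in this order were 1305 of 14263, 1001 of 11840, 1084 of 29986, 928 of 14211 and 866 of 14263. Library totals in place of TMM gave 7 for HT-DNA+AOA vs HT-DNA, and no filter gave 48 for the AOA interaction. Over all genes these fits gave 6496 of 14263 and 2764 of 29986. With replicate 2 as the sole HT-DNA+AOA library, an alternative chosen after seeing the data that assumes it varies like the other groups, the AOA interaction gave 33.

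Leaving out 1 library gave 30 to 61 for AOA+Asp vs AOA and 0 to 1 for AOA+Asp vs Mock. It gave 65 to 74 for HT-DNA vs Mock and 5 to 39 for HT-DNA+AOA vs HT-DNA. Over all genes (14549 to 14593 tested) the counts in this order were 5426 to 6200, 359 to 724, 5442 to 6663 and 5569 to 7455. Among the 79, leaving out 1 library gave 30 to 76 for HT-DNA+AOA+Asp vs HT-DNA+AOA and 16 to 50 for HT-DNA+AOA+Asp vs HT-DNA. It gave 0 to 59 for the AOA interaction and 0 in each fit for the aspartate interaction. The median of the aspartate interaction moved from -0.049 to 0.15 without HT-DNA+AOA replicate 3. Over all genes the counts in this order were 5726 to 8008, 5088 to 6507, 1145 to 5420 and 69 to 416. With library totals in place of TMM, the median of all genes was -0.12 with AOA and -0.12 with HT-DNA. Of the genes then called, 2124 of 6626 and 2408 of 6845 were higher. The 79 genes had medians of 0.33 and 0.38 on that scale, with 52 called (1 of them, Rpl3l, lower) and 67 called (all higher).

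Single genes reversed under the GC content and length correction, where Rpl29 read 0.24 and Rpl7a 0.045 in HT-DNA+AOA+Asp vs HT-DNA, Rpl7 -0.0035 in HT-DNA+AOA vs HT-DNA, Rpl7a 0.0048 in AOA+Asp vs AOA and Rps18 -0.18 with HT-DNA. With the replicate block as well, Rpl7 read -0.0076 and the others the same to 2 digits. With length alone removed, Rps18 read -0.042 and Rps4x -0.026 with HT-DNA, and Rps26 0.0057 in HT-DNA+AOA+Asp vs HT-DNA+AOA. Of 95 results on single genes, 75 kept direction and call with length removed and 64 with GC content and length removed.

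Same-numbered replicates did not deviate together (45 pairs of libraries, r from -0.11 to 0.278, 7 over 0.1), and 9 of 18 libraries correlated best with one of their own number, so the numbers were not taken to pair the samples. With the replicate block the counts were 71 for AOA vs Mock, 56 for AOA+Asp vs AOA, 2 for AOA+Asp vs Mock, 74 for HT-DNA vs Mock, 11, 68 and 52 for the comparisons of HT-DNA+AOA with HT-DNA, HT-DNA+AOA+Asp with HT-DNA+AOA and HT-DNA+AOA+Asp with HT-DNA, and 9 and 0 for the interactions.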
